A study of Mus musculus with 8 samples.

Results

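Chemokines are small secreted proteins that attract leukocytes by binding G protein-coupled receptors on the target cell. The 9 genes described here encode chemokines that T cells, regulatory T cells (Tregs) among them, can make: Cx3cl1, Ccl1, Ccl3, Ccl4, Ccl5, Ccl20, Ccl22, Xcl1 and Cxcl10. They were chosen by gene symbol, matched to the Ensembl identifiers of the deposited tables, and all 9 were found among 47069 Ensembl genes present in both tables. Transcripts were measured by RNA sequencing in Tregs sorted from lymph node of C57BL/6 mice of 6 to 8 weeks of age. All mice carried a pair of reporters (35EbiT × Blimp1-GFP KI, the latter a knock-in), so both populations came from the same doubly modified strain and no unmodified control entered. Both were CD4+ and CD25+ and gated as low for CD62L. Ebi3-Treg cells were in addition Thy1.1+ without Blimp1 (Blimp1-), and Blimp1-Treg cells were Blimp1+ without Thy1.1 (Thy1.1-), with 4 libraries of each. How the 35EbiT construct drives Thy1.1 is not given in the sources used here, and the cells were not gated on Foxp3.

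A sort for CD62L-low cells selects Tregs that have left the resting state. Such effector Tregs are known to carry receptors for inflammatory chemokines and to make chemokines themselves, which can draw other lymphocytes or antigen-presenting cells towards them. Blimp1, encoded by Prdm1, is a transcriptional repressor of effector lymphocytes, and Ebi3 is a chain shared by the cytokines IL-35 and IL-27.

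Levels are in FPKM (fragments per kilobase of transcript and megafragment), which can be compared between genes. Replicates 1 and 2 of each population were deposited in one table and replicates 3 and 4 in another, and levels set side by side across the tables carry the limit that the tables may have been scaled separately. Depth was lowest for Ebi3-Treg 3, with 13.3 M (M, mega) fragments, and highest for Blimp1-Treg 1, with 31.3 M. The reporter genes followed the labels: the log2 fold changes were 1.80 for Ebi3 (adjusted p = 0.00576) and -4.43 for Prdm1 (adjusted p = 0.000155). The T cell and Treg genes Cd4, Cd3e, Foxp3, Il2ra, Ctla4 and Ikzf2 were at or above 345, 626, 182, 180, 718 and 111 FPKM in all 8 libraries. None of these 6 was called, but with the replicate number as a block Cd3e (log2 fold change -0.45, adjusted p = 0.00876, and 0.104 without) and Ctla4 (-0.76, 0.0115, and 0.353 without) were lower in Ebi3-Treg. A log2 fold change is the difference of log2(FPKM + 1) values, positive where Ebi3-Treg was higher, and this scale shrinks the differences of low genes. Fits were made with limma over the 12273 genes that reached 1 FPKM in 4 or more of the 8 libraries, and a call is a Benjamini-Hochberg adjusted p under 0.05. The labels do not tie the replicates to separate animals, and the p values therefore reflect variation among these libraries, which could be technical.

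Transcripts of other cell types were also present. Summed markers of B cells, dendritic cells, monocytes or macrophages, NK cells, CD8 T cells and stromal or endothelial cells were each highest of the 8 libraries in Ebi3-Treg 1. The stromal or endothelial sum was mostly Pecam1, which lymphocytes also express, and the monocyte or macrophage sum was mostly Lyz2. Other libraries came near Ebi3-Treg 1 for some lists. Ebi3-Treg 2 had 92.5 FPKM of monocyte or macrophage markers, and Blimp1-Treg 1 had 141 FPKM of B cell and 30.3 FPKM of CD8 T cell markers. In Ebi3-Treg and Blimp1-Treg the sums spanned 26.8 to 193 and 20.8 to 141 FPKM for 5 B cell markers, and 8.58 to 39.3 and 7.76 to 30.3 FPKM for 2 CD8 T cell markers. They spanned 9.75 to 104 and 4.75 to 31.4 FPKM for 5 monocyte or macrophage markers, 3.35 to 25.9 and 1.51 to 4.36 FPKM for 5 NK cell markers, and 4.59 to 14.6 and 3.70 to 11.5 FPKM for 6 dendritic cell markers. None of the tested markers of these 5 lists (3, 1, 1, 2 and 1 genes) was called by limma (2 at an unadjusted p under 0.05, Lyz2 and Tyrobp). With the replicate number as a block, Cd79b, Lyz2 and Tyrobp were called higher. Values without Ebi3-Treg 1 are given with the chemokines and the called receptors, and they still hold the libraries named here with such transcripts.

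Of the 9 chemokines, Cx3cl1 was called higher in Ebi3-Treg, Ccl20 was called lower, and Ccl3, Ccl4, Ccl5 and Cxcl10 were not called. Ccl1, Ccl22 and Xcl1 were too low in too many libraries to enter the fit. Over all 12273 genes tested, 3.37% were called higher and 2.93% lower, 6.29% in all. With the replicate number as a block, Cxcl10 joined Cx3cl1 as higher and Ccl4 and Ccl5 joined Ccl20 as lower, in a fit that called 13.5% of all genes higher and 8.94% lower. Cx3cl1 passed the filter through its Ebi3-Treg libraries alone, so its entry into the test already required a difference and the share called among the chemokines tested is given as a description. The median log2 fold change of the 6 tested chemokines was -0.76, against 0.07 over all genes tested. Fewer cells making a transcript and less of it per cell cannot be told apart in these bulk libraries.

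The promoters of the called pair are shown, with that of Cxcl10, which was not called and had the highest mean level of the 9 in Ebi3-Treg. Each is the 250 bases before the gene's start, on the gene's strand, from RefSeq with build GRCm38.p6. The build differs from that of the deposited files, so these positions belong to the RefSeq table. Cx3cl1 was at chr8:94771930-94772179 (plus strand), Ccl20 at chr1:83116516-83116765 (plus strand) and Cxcl10 at chr5:92348890-92349139 (minus strand). Capitals mark the letters TATAAA (the TATA box core) in Cx3cl1, GGGA and CC with any 4 bases between them (an NF-kB motif) in Ccl20 and Cxcl10, and TGANTCA (an AP-1 motif) in Cxcl10, with N for any base.
Cx3cl1: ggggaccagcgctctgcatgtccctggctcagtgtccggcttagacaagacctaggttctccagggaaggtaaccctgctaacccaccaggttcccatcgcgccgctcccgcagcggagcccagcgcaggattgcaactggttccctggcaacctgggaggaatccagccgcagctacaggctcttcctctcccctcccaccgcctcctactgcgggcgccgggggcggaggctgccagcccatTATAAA
Ccl20: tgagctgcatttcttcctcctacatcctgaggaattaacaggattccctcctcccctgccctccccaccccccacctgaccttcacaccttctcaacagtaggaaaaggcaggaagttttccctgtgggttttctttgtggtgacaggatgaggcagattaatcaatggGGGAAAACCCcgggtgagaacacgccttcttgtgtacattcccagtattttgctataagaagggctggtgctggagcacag
Cxcl10: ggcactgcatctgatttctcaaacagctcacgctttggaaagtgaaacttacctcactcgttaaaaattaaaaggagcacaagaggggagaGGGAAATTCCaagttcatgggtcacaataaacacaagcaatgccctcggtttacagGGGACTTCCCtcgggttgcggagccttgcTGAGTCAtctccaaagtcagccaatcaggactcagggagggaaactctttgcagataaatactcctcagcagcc

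The TATAAA of Cx3cl1 ended the window, with its first base 6 bases before the start. The NF-kB letters began 81 bases before the start in Ccl20, and 159 and 103 bases before it in Cxcl10. The AP-1 letters of Cxcl10 began 74 bases before the start. Searched on both strands over 32851 RefSeq promoters of the same length, the NF-kB letters occurred in 17.6%, TGANTCA in 6.75%, TATAAA in 12.4% and the Blimp1 letters AGNGAAAG in 7.30%. Of the 7 chemokines with a promoter in the RefSeq table (Ccl4 and Ccl5 had no entry), the NF-kB letters were in Ccl1, Ccl20, Ccl22 and Cxcl10, and the Blimp1 letters were in no window searched. A match is a description of letters and not a bound site.

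Cx3cl1 (ENSMUSG00000031778) encodes fractalkine, a chemokine made as a membrane-anchored protein that is shed by proteases and binds the receptor Cx3cr1. It stood at 22.5, 15.7, 8.98 and 4.86 FPKM in Ebi3-Treg 1 to 4, and at 0.222, 0.95, 0.321 and 0.578 FPKM in Blimp1-Treg 1 to 4. Every Ebi3-Treg library was above every Blimp1-Treg library, and the first table held the pair of highest values. Over all genes tested, 11.1% had populations that did not overlap in the 8 libraries. Cx3cl1 reached 1 FPKM in the 4 Ebi3-Treg libraries alone and entered the test that way. Its lack of overlap was therefore set by the filter, and that share is no yardstick for it. The means were 13.0 ± 7.76 and 0.518 ± 0.325 FPKM (SD, n = 4), a 25.1-fold difference of means. The log2 fold change was 3.04 (SE 0.34, 95% interval 2.26 to 3.83, adjusted p = 0.00254, limma). Behind these levels were 139 to 747 reads per Ebi3-Treg library and 8 to 24 reads per Blimp1-Treg library.

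The Cx3cl1 difference was present within each table, with means of 19.1 against 0.586 FPKM in the first table (log2 difference 3.68) and 6.92 against 0.450 FPKM in the second (2.40). The change of the difference from the first to the second table was -1.28 (SE 0.55, interval -2.58 to 0.02), which did not pass (limma interaction, adjusted p = 1.0). Without Ebi3-Treg 1 the log2 fold change was 2.82 (adjusted p = 0.00532), and it was called with each of the 8 libraries left out in turn (highest adjusted p = 0.0146). It lost its call without both libraries numbered 3 (adjusted p = 0.0589). Endothelial cells are a classical source of fractalkine. The endothelial marker Cdh5 was at most 0.176 FPKM in the 8 libraries, with 0.176, 0, 0.0188 and 0.0341 FPKM in Ebi3-Treg 1 to 4, and Pdpn at most 0.0527 FPKM. Lyve1, of lymphatic endothelium, was at 0.180, 0.0570, 0.201 and 0.139 FPKM in Ebi3-Treg 1 to 4 and 0.0245, 0, 0 and 0 FPKM in Blimp1-Treg 1 to 4, higher in each Ebi3-Treg library as Cx3cl1 was, and too low to be tested. Col1a1, a fibroblast gene, had a log2 fold change of -0.19 and was not called. The part of such cells in the Cx3cl1 value was not tested. Pecam1, which lymphocytes also express, was at 30.2 to 61.2 FPKM in Ebi3-Treg and 15.9 to 32.3 FPKM in Blimp1-Treg. Its log2 difference was 0.77 (limma, adjusted p = 0.163, and 0.00285 with the block). Pecam1 made up most of the summed level of the 5 stromal or endothelial markers in every library. That sum was 30.4 to 64.0 FPKM in Ebi3-Treg and 16.4 to 34.0 FPKM in Blimp1-Treg.

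**Figure D1:**
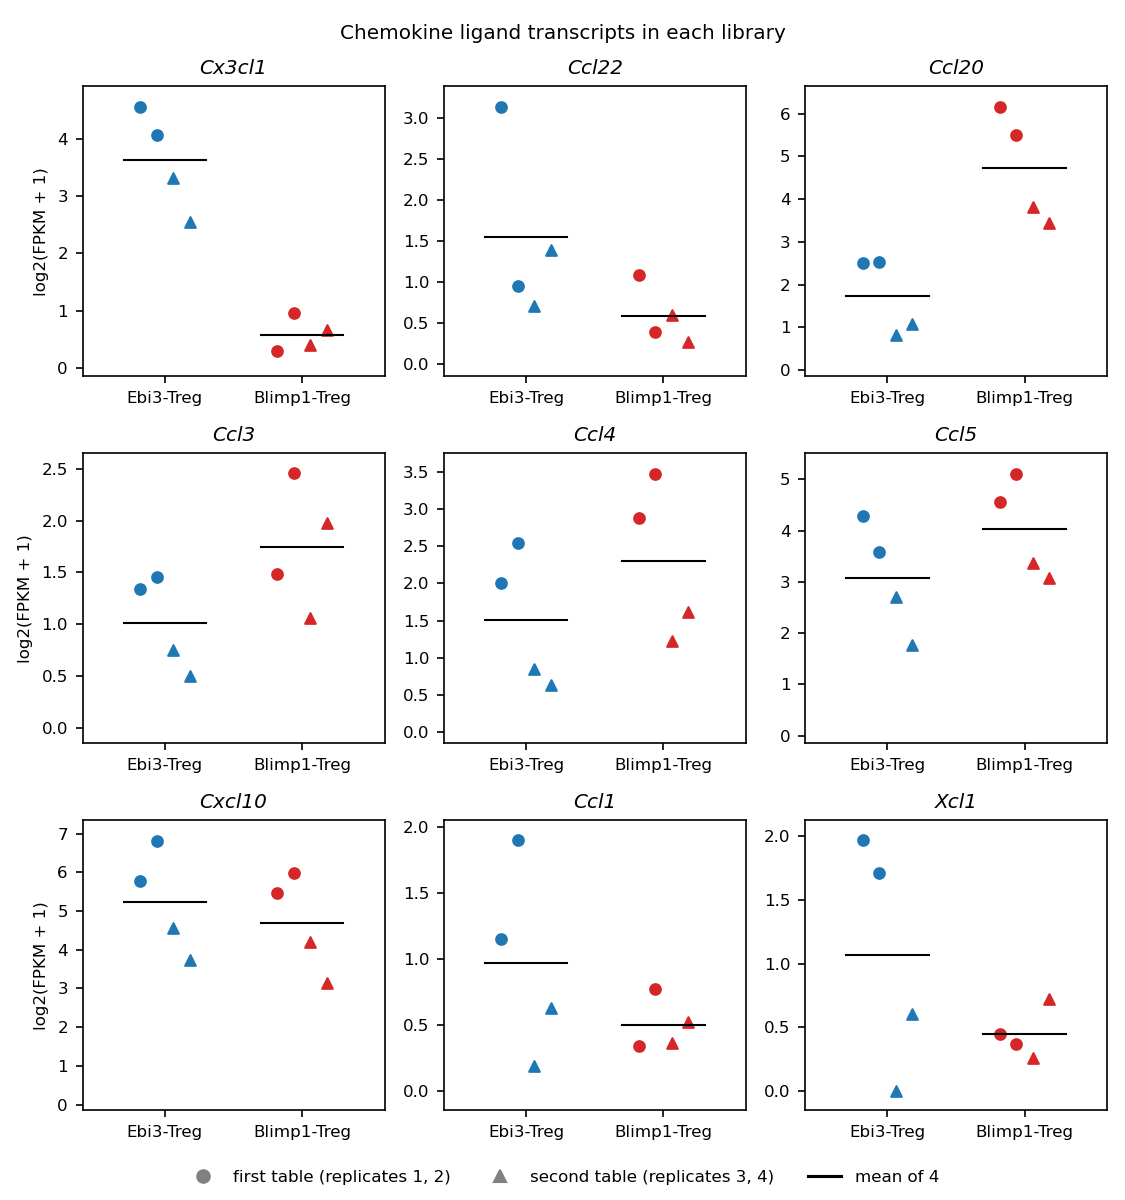
Level of each of the 9 chemokine transcripts in log2(FPKM + 1) (vertical axis, own scale per panel) in the 4 Ebi3-Treg and 4 Blimp1-Treg libraries; circles are the first table, triangles the second and the line is the mean of 4. Cx3cl1 and Ccl20 are the 2 panels in which the populations do not overlap, while in Ccl3, Ccl4 and Ccl5 the Blimp1-Treg points lie above the Ebi3-Treg points of the same table.

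Ccl20 (ENSMUSG00000026166) encodes a chemokine that attracts Ccr6-bearing lymphocytes and dendritic cells to mucosal and inflamed sites. Its levels were 4.64, 4.74, 0.755 and 1.09 FPKM in Ebi3-Treg 1 to 4 and 70.1, 44.0, 13.0 and 9.93 FPKM in Blimp1-Treg 1 to 4. Every Blimp1-Treg library was above every Ebi3-Treg library, and within both populations the first table was higher than the second. The means were 2.81 ± 2.18 and 34.2 ± 28.4 FPKM (SD, n = 4), which is 12.2-fold higher in Blimp1-Treg. The log2 fold change was -3.0 (SE 0.22, interval -3.52 to -2.49, adjusted p = 0.000489).

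The ratio of the Ccl20 means was 12.2 in the first table and 12.4 in the second, although the levels differed 4.99-fold between tables. The corresponding log2 differences were -3.31 and -2.69, and their difference did not pass (0.62, SE 0.42, adjusted p = 1.0). Reads ranged from 10 to 118 per Ebi3-Treg library and from 145 to 2179 per Blimp1-Treg library. Ccl20 was called with each of the 8 libraries left out in turn, with -2.93 without Ebi3-Treg 1 (adjusted p = 0.00165) and a highest adjusted p of 0.00437. Without the table term the same difference missed the threshold (adjusted p = 0.0516). Across the 8 libraries, centred within each table, Cx3cl1 and Ccl20 had a Pearson r of -0.99. These 8 points share the contrast between the populations and their libraries, so the value repeats the contrast.

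**Figure D2:**
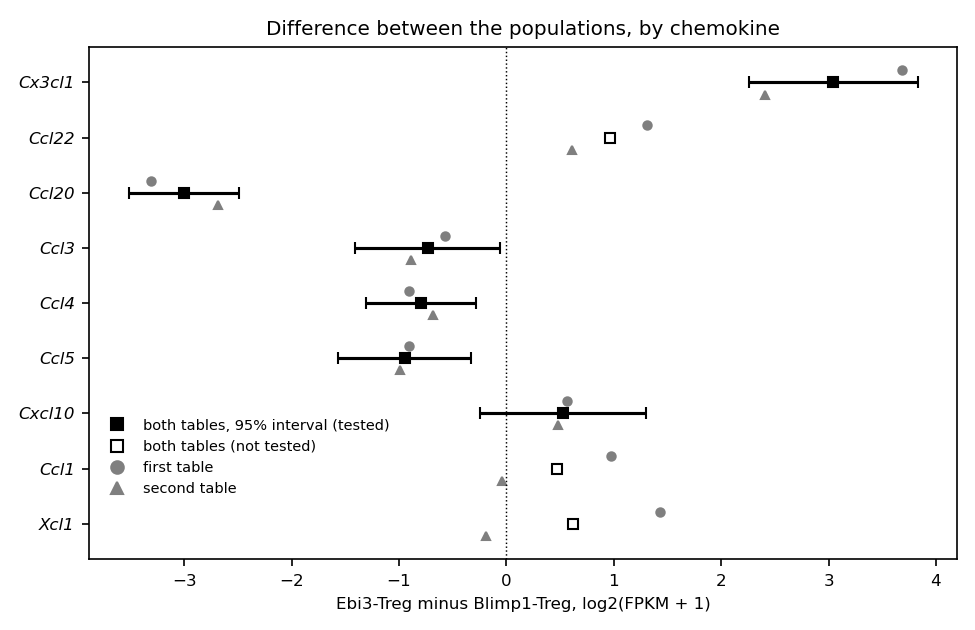
Difference between the populations for each chemokine (horizontal axis, Ebi3-Treg minus Blimp1-Treg in log2(FPKM + 1)); filled squares are limma estimates with 95% intervals, open squares are differences of means for the 3 chemokines not tested, and grey circles and triangles are the first and second table. Cx3cl1 lies at 3.04 and Ccl20 at -3.0, with the other estimates between -0.95 and 0.96.

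Ccl3, Ccl4 and Ccl5 are inflammatory CC chemokines, formerly named MIP-1 alpha, MIP-1 beta and RANTES, that activated T cells and NK cells release. All 3 had lower values in Ebi3-Treg within each table, but did not pass the test. Over all genes tested, 19.0% had populations that did not overlap within either table and differed in the same direction in both.

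Ccl5 (ENSMUSG00000035042) was the most abundant of the 3, at 18.4, 10.9, 5.5 and 2.41 FPKM in Ebi3-Treg 1 to 4 and 22.6, 33.4, 9.28 and 7.48 FPKM in Blimp1-Treg 1 to 4. Within each table both Blimp1-Treg libraries were higher, but over the 8 libraries the populations overlapped. The log2 fold change was -0.95 (SE 0.27, interval -1.56 to -0.33, adjusted p = 0.0859), and the block gave an adjusted p of 0.0211. Without Ebi3-Treg 1 it was -1.10 (adjusted p = 0.0623).

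Ccl4 (ENSMUSG00000018930) had 3.02, 4.81, 0.796 and 0.549 FPKM in Ebi3-Treg 1 to 4 and 6.35, 10.1, 1.34 and 2.06 FPKM in Blimp1-Treg 1 to 4. The tables did not overlap, since even the lowest library of the first table was above all 4 of the second. The log2 fold change was -0.79 (SE 0.22, adjusted p = 0.0836, and 0.0163 with the block), and -0.66 without Ebi3-Treg 1 (adjusted p = 0.145). Ccl3 (ENSMUSG00000000982) was the lowest of the 3, with 1.53, 1.75, 0.686 and 0.414 FPKM in Ebi3-Treg 1 to 4 and 1.79, 4.48, 1.09 and 2.93 FPKM in Blimp1-Treg 1 to 4. Its log2 fold change was -0.73 (SE 0.29, adjusted p = 0.224, and 0.0866 with the block), on 7 to 67 reads per library, and -0.74 without Ebi3-Treg 1 (adjusted p = 0.277). Ccl3 and Ccl4 are neighbouring genes in the reference annotation, and their table-centred levels had a Pearson r of 0.88 over the 8 libraries, which again share the contrast between populations. The fits put the differences of the 3 genes in the same range, and those of Ccl3, Ccl4 and Ccl5 in the first table (-0.57, -0.90 and -0.91) and the second (-0.89, -0.68 and -0.99) did not pass a test of the change between tables (adjusted p = 1.0 each).

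Cxcl10 (ENSMUSG00000034855) encodes an interferon-induced chemokine that attracts Cxcr3-bearing effector T cells. It was the most abundant of the 9 in Ebi3-Treg, at 54.2, 111, 22.7 and 12.2 FPKM in Ebi3-Treg 1 to 4, with 43.5, 62.3, 17.3 and 7.75 FPKM in Blimp1-Treg 1 to 4. The populations overlapped within both tables. The ratio of the means was 1.53, with SDs of 44.4 and 24.9 FPKM (n = 4), and the log2 fold change was 0.52 (SE 0.33, interval -0.25 to 1.30, adjusted p = 0.501). Each Ebi3-Treg library was above the Blimp1-Treg library of its own number, and with the replicate number as a block Cxcl10 was called higher in Ebi3-Treg (SE 0.11, adjusted p = 0.0156). With a library left out in turn the log2 fold change ranged from 0.31 (without Ebi3-Treg 2, and 0.32 without Blimp1-Treg 4) to 0.75, with 0.72 without Ebi3-Treg 1 (adjusted p = 0.296). Exons of Art3 overlap Cxcl10 on the other strand in the reference annotation, and the sources used here do not state whether reads were assigned by strand. Art3 ranged from 0.843 to 13.7 FPKM and its log2 fold change was 1.05 (SE 0.58, adjusted p = 0.410).

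Ccl22, Ccl1 and Xcl1 were near 1 FPKM or below in most libraries. Each was compared by an exact two-sided permutation test of its mean log2(FPKM + 1), 3 tests in all, for which 2 of 70 assignments is the smallest p possible. The assignments cross the tables, whose mean levels differed 3.43- to 4.27-fold for these genes, so unlike the fits this test takes no account of the table. None of the 3 passed. The differences given below with a library left out are of plain group means, without the table term of the fits. Leaving out a library makes the tables uneven between the populations, so such a value mixes the library with its table.

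Ccl22 (ENSMUSG00000031779), which dendritic cells make to attract Ccr4-bearing Tregs, was at 7.83, 0.944, 0.628 and 1.62 FPKM in Ebi3-Treg 1 to 4 and at 1.12, 0.312, 0.515 and 0.207 FPKM in Blimp1-Treg 1 to 4. A single library, Ebi3-Treg 1, held the high value, and the other 7 were at or below 1.62 FPKM. The difference was 0.96 on the log2 scale (exact permutation p = 0.114), and 0.43 without Ebi3-Treg 1. In the second table both Ebi3-Treg libraries were above both Blimp1-Treg libraries, and in the first the populations overlapped. Ebi3-Treg 1 also had the highest summed dendritic cell markers (14.6 FPKM) and monocyte or macrophage markers (104 FPKM). Of the latter, Lyz2 was at 99.1 FPKM there and at 91.1 FPKM in Ebi3-Treg 2, where Ccl22 was at 0.944 FPKM. Csf1r and Adgre1 were also highest in Ebi3-Treg 1, and Cd14 and Fcgr1 were not. The dendritic cell markers Itgax (1.55 FPKM), Flt3 (0.883 FPKM) and Siglech (3.23 FPKM) were highest of the 8 libraries there, as Ccl22 was. Zbtb46, the most abundant dendritic cell marker in that library at 7.55 FPKM, was higher in Blimp1-Treg 3 (10.8 FPKM), where Ccl22 was at 0.515 FPKM. Clec9a and Cd209a were highest in Blimp1-Treg 4 (0.398 and 1.19 FPKM), where Ccl22 was at 0.207 FPKM. The part of such cells in the Ccl22 value was not tested.

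Xcl1 (ENSMUSG00000026573), or lymphotactin, is made by CD8 T and NK cells and attracts cross-presenting dendritic cells. It was at 2.91, 2.27, 0 and 0.519 FPKM in Ebi3-Treg 1 to 4 and at 0.367, 0.294, 0.199 and 0.651 FPKM in Blimp1-Treg 1 to 4. Both first-table Ebi3-Treg libraries were above the rest, whereas in the second table the populations overlapped. Ebi3-Treg 3 had no read, which allows a level of up to 0.430 FPKM (3 reads). The difference was 0.62 (exact permutation p = 0.343), with 1.43 in the first table and -0.19 in the second. Leaving out Ebi3-Treg 1 or 2 lowered it to 0.32 and 0.41, and leaving out Ebi3-Treg 3 raised it to 0.98. Summed NK cell markers were 25.9, 8.11, 5.60 and 3.35 FPKM in Ebi3-Treg 1 to 4, and Ncr1, a defining NK cell receptor, was at 6.84, 1.47, 0.355 and 0.490 FPKM there. The other NK cell receptor genes Klrb1c (5.72, 1.78, 2.12 and 1.78 FPKM) and Klrc2 (0.898, 0.0923, 0.652 and 0.337 FPKM) were high in Ebi3-Treg 1 and not in Ebi3-Treg 2, where Xcl1 was also high. In Blimp1-Treg 4, Klrb1c was at 2.63 FPKM and Klrc2 at 0.845 FPKM. The NK cell marker Tyrobp was highest of the 8 libraries in Ebi3-Treg 1 and then 2 (10.7 and 3.95 FPKM), as Xcl1 was. Eomes had the same order within Ebi3-Treg (1.73, 0.81, 0.474 and 0.504 FPKM), but was at 0.915 FPKM in Blimp1-Treg 1. The part of NK cells in the Xcl1 value was not tested. The antisense gene Gm20743, which overlaps Xcl1, was at most 0.494 FPKM.

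Ccl1 (ENSMUSG00000020702), the ligand of Ccr8, was at 1.23, 2.74, 0.138 and 0.543 FPKM in Ebi3-Treg 1 to 4 and at 0.265, 0.709, 0.288 and 0.439 FPKM in Blimp1-Treg 1 to 4. Its first-table Ebi3-Treg libraries were the 2 highest of the 8. The difference was 0.47 (exact permutation p = 0.314), with 0.97 in the first table and -0.04 in the second, on 2 to 60 reads per library. Leaving out Ebi3-Treg 2 lowered it to 0.15, and leaving out Ebi3-Treg 1 or 3 gave 0.40 and 0.73.

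**Figure D3:**
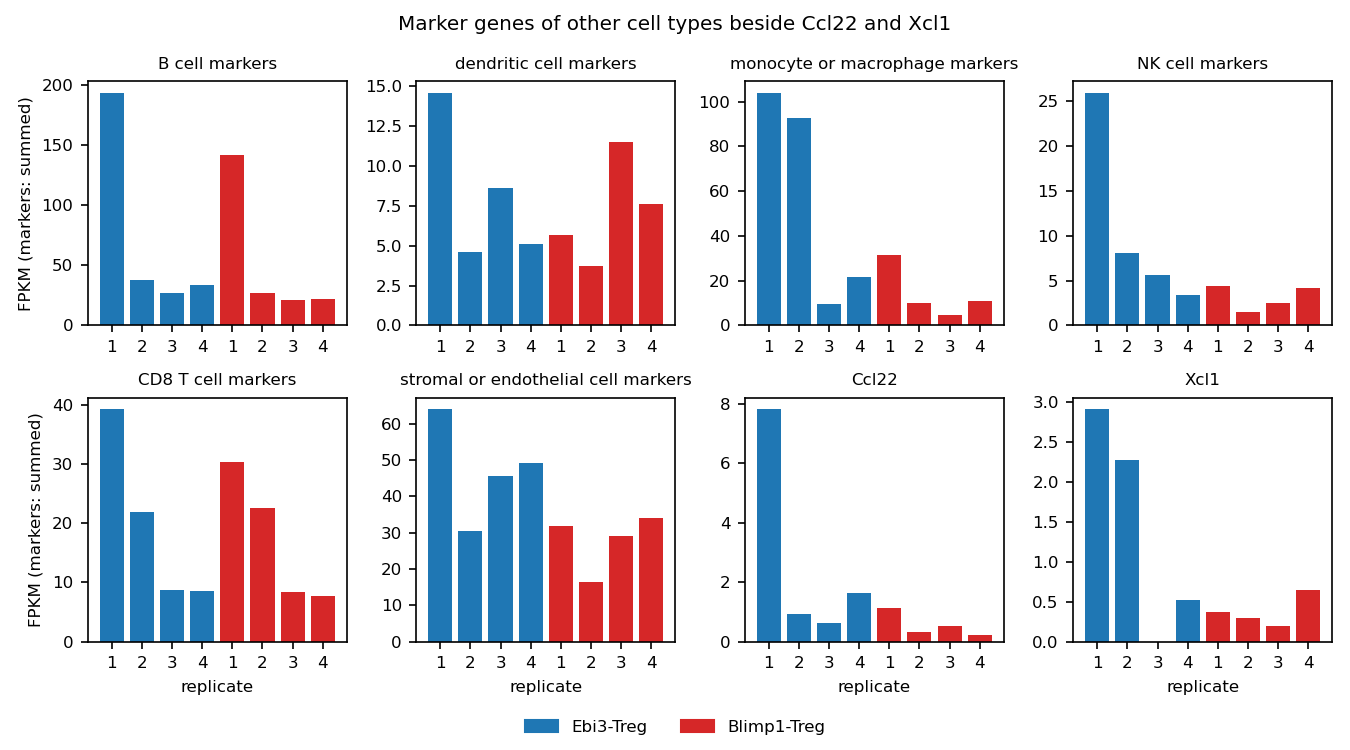
Summed FPKM of the marker genes of 6 other cell types, and FPKM of Ccl22 and Xcl1, in each library (horizontal axis, replicates 1 to 4 of Ebi3-Treg in blue and Blimp1-Treg in red; bars start at 0). The first Ebi3-Treg bar is the tallest in all 8 panels, with 193 FPKM of B cell markers and 7.83 FPKM of Ccl22.

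The ligand profile of the populations was then described as shares of the summed FPKM of the 9 chemokines and the 31 other chemokine ligands found. That sum was 59.7 to 176 in Ebi3-Treg and 65.1 to 177 in Blimp1-Treg, and the 9 genes made up 40.6% to 91.6% of it. Cx3cl1 made up 16.3%, 8.89%, 13.2% and 8.14% in Ebi3-Treg 1 to 4 and at most 0.888% in a Blimp1-Treg library. Ccl20 made up 1.11% to 3.36% in Ebi3-Treg and 43.9%, 24.9%, 15.3% and 15.2% in Blimp1-Treg 1 to 4. Cxcl10 was the leading ligand in Ebi3-Treg 1, 2 and 3 and in Blimp1-Treg 2, Ccl20 led in Blimp1-Treg 1, and Cxcl2, a neutrophil-attracting chemokine outside the 9, led in Ebi3-Treg 4 and in Blimp1-Treg 3 and 4. These shares restate the FPKM values and were not tested.

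**Figure D4:**
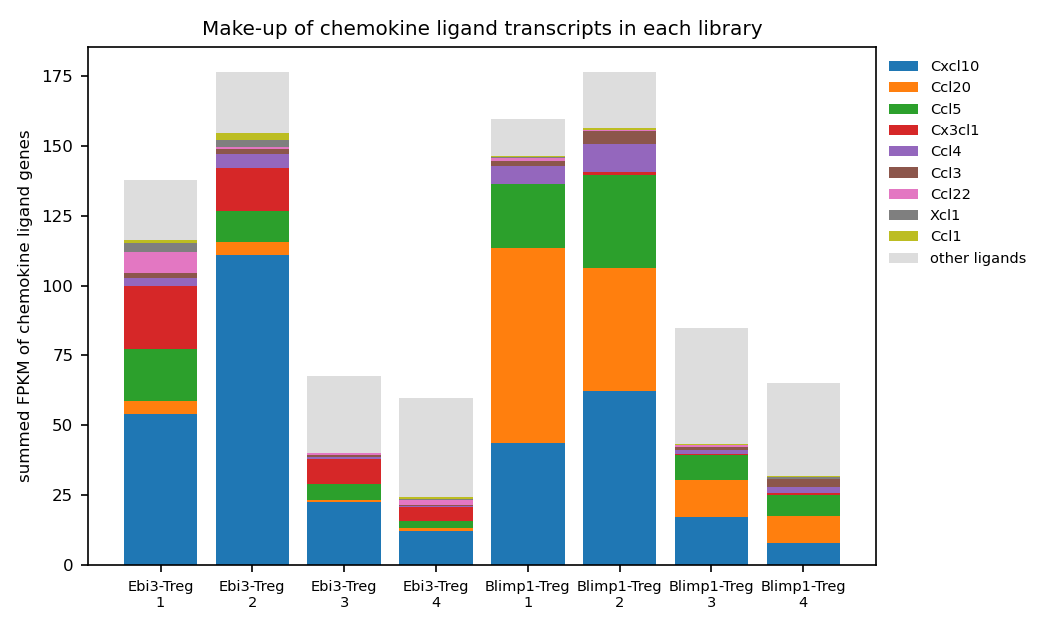
Summed FPKM of all chemokine ligand genes in each library (vertical axis), with the 9 chemokines in colour and the 31 others in grey. Cx3cl1 (red) is visible in the 4 Ebi3-Treg bars and Ccl20 (orange) takes 15.2% to 43.9% of the Blimp1-Treg bars.

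Of the other chemokine ligands, 31 of 32 listed were found, 4 passed the filter and 0 were called (limma, 0 at an unadjusted p under 0.05, and 0 called with the block). Their log2 fold changes were 0.42 for Ccl25, a thymic and gut chemokine, 0.28 for Ccl2, a monocyte attractant, 0.01 for the platelet chemokine Pf4 and -0.52 for Cxcl2, with a median of 0.15. Cxcl11, another interferon-induced ligand of Cxcr3, was too low to be tested, at 0.683, 1.79, 0.586 and 0.758 FPKM in Ebi3-Treg 1 to 4 and 0.107, 0.401, 0.0774 and 0 FPKM in Blimp1-Treg 1 to 4. It was chosen after its values were seen, as the populations did not overlap. Cxcl9, the remaining ligand of that receptor, was at most 0.791 FPKM.

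The levels of the 9 genes also differed between the tables. The mean over the first table was higher than over the second for all 9, by 1.87-fold for Ccl3 to 5.11-fold for Ccl4. For Ccl4, Ccl5 and Cxcl10, all 4 libraries of the first table were above all 4 of the second. The ligands Cxcl2 and Ccl2 went the other way, with every second-table library higher and means 4.03-fold and 4.86-fold higher. Xist, transcribed from the inactive X chromosome of female cells, was at most 0.0750 FPKM in the first table and at least 18.5 FPKM in the second, so the table and the sex of the mice cannot be told apart.

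The receptors of these chemokines were compared from a list of 10, of which 6 were tested, 4 were called lower in Ebi3-Treg and none of the 6 higher, where 2.93% of all genes were called lower and 3.37% higher. Ccr1 and Ccr3 passed the filter through the Blimp1-Treg libraries alone, so their entry required a difference, and the median log2 fold change of -1.31, which includes them, is a description.

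Ccr4, the receptor for Ccl22 that guides Tregs to skin and inflamed tissue, was at 26.3, 14.6, 16.8 and 15.9 FPKM in Ebi3-Treg 1 to 4 and 81.5, 50.7, 47.7 and 49.0 FPKM in Blimp1-Treg 1 to 4. The populations did not overlap, and the log2 fold change was -1.59 (SE 0.22, adjusted p = 0.00605), and -1.73 without Ebi3-Treg 1 (adjusted p = 0.00556). Cxcr3, the receptor for Cxcl10 on Tregs that control type 1 responses, was at 55.8, 110, 78.1 and 89.3 FPKM in Ebi3-Treg 1 to 4 and 126, 156, 211 and 191 FPKM in Blimp1-Treg 1 to 4. Its log2 fold change was -1.04 (SE 0.23, adjusted p = 0.0341), a call that was kept in only 2 of 8 fits with a library left out, those without Ebi3-Treg 2 and without Blimp1-Treg 1. The highest adjusted p of the 8 was 0.126, and without Ebi3-Treg 1 it was 0.0574. The call was also lost with no filter on low values (adjusted p = 0.0935), with no table term (0.0614) and with TMM scaling (0.0534).

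Ccr1, a receptor for Ccl3 and Ccl5, was at 0.0320 to 0.715 FPKM in Ebi3-Treg and 4.45 to 9.10 FPKM in Blimp1-Treg, and its log2 fold change was -2.21 (SE 0.25, adjusted p = 0.00296). Ccr3, which binds Ccl5 among other ligands, was at 0, 0.0908, 0 and 0.180 FPKM in Ebi3-Treg 1 to 4 and 6.36, 6.27, 4.55 and 1.25 FPKM in Blimp1-Treg 1 to 4 (log2 fold change -2.25, SE 0.34, adjusted p = 0.00869). These receptor genes are close paralogs, and their values are uncertain where reads could be shared. Without Ebi3-Treg 1 the log2 fold changes were -2.20 for Ccr1 (adjusted p = 0.0074) and -2.12 for Ccr3 (adjusted p = 0.0195). All 4 lower receptors stood at lower levels in each Ebi3-Treg library than in any Blimp1-Treg library, where 11.1% of all genes tested had populations that did not overlap. As the 4 were picked by their call, this repeats the call.

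Ccr6, the receptor for Ccl20, and Ccr8, the receptor for Ccl1 that marks tissue Tregs, were not called. Ccr6 was at 167, 101, 111 and 79.3 FPKM in Ebi3-Treg 1 to 4 and at 131, 46.3, 65.8 and 51.5 FPKM in Blimp1-Treg 1 to 4. Its log2 fold change was 0.70 (SE 0.33, adjusted p = 0.312), and with the block it was called higher (adjusted p = 0.00895). Ccr8 was at 116 to 316 FPKM in Ebi3-Treg and 148 to 244 FPKM in Blimp1-Treg (log2 fold change -0.32, adjusted p = 0.712). In the first table alone the Ccr8 difference was 0.23 and in the second -0.88 (adjusted p = 0.00766). The change of the difference between tables was called for 0 of 12273 genes without the block (limma, 203 at an unadjusted p under 0.05) and for 13 with it. Cx3cr1, Xcr1, Ackr1 and Ackr2 were at most 1.91 FPKM and were not tested, so the receptor of Cx3cl1 itself was at or below 1.91 FPKM in all 8 libraries.

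**Figure D5:**
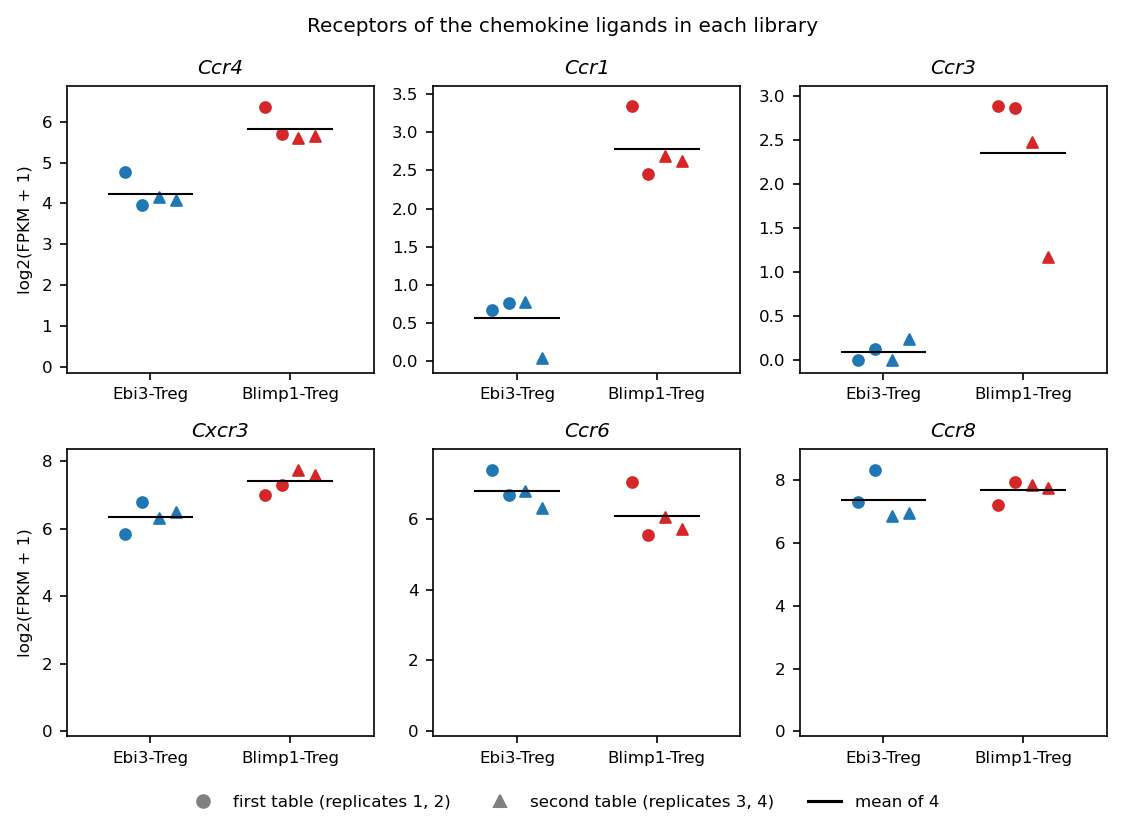
Level of 6 receptors of these chemokines in log2(FPKM + 1) (vertical axis, own scale per panel) in each library; circles are the first table, triangles the second and the line is the mean of 4. In Ccr4, Ccr1, Ccr3 and Cxcr3 all 4 Blimp1-Treg points lie above the 4 Ebi3-Treg points, while in Ccr6 and Ccr8 the populations overlap.

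Proteins that process or carry chemokines were read from a list of 4, none of which was called by limma (1 at an unadjusted p under 0.05). Adam10 and Adam17 are the proteases that shed fractalkine, Dpp4 trims the N-terminus of Cxcl10 and other chemokines, and serglycin, encoded by Srgn, is the proteoglycan of secretory granules. Their log2 fold changes were -0.28, -0.34, 0.11 and -1.14, with a median of -0.31. With the block, Adam17 (adjusted p = 0.0248) and Srgn (adjusted p = 0.00117) were called lower in Ebi3-Treg. Srgn was at 748, 1769, 629.9 and 612 FPKM in Ebi3-Treg 1 to 4 and at 1968, 4260.3, 1119.8 and 1285 FPKM in Blimp1-Treg 1 to 4.

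Of 18 genes of the signalling and migration machinery downstream of chemokine receptors, all 18 were tested and 0 were called by limma (4 at an unadjusted p under 0.05), with a median log2 fold change of -0.16. The smallest p values belonged to Rhoa (-0.36), Elmo1 (-0.52), Rac2 (0.35) and Cdc42 (-0.44). With the block, under which 22.4% of all genes tested were called, Pik3cg, Elmo1, Cdc42 and Rhoa were called lower. The heterotrimeric G protein gene Gnai2, through which chemokine receptors signal, was at 804 to 1066 FPKM in Ebi3-Treg and 794 to 1355 FPKM in Blimp1-Treg.

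The neighbours of the called pair in the reference annotation were examined next. Cx3cl1 lies between the chemokine genes Ccl22 and Ccl17. Ccl17 was at most 0.609 FPKM, and the next genes on either side, Pllp and Ciapin1, were at most 0.269 FPKM and at a log2 fold change of -0.23 (adjusted p = 0.559). Next to Ccl20 lies Daw1, a gene for a ciliary protein, which was too low for the fit: it was at 0.266, 0, 0.0567 and 0.0685 FPKM in Ebi3-Treg 1 to 4 and 9.84, 14.3, 0.866 and 0.463 FPKM in Blimp1-Treg 1 to 4. It was chosen after its values were seen, and every Blimp1-Treg library was above every Ebi3-Treg library.

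The genes whose table-centred levels most resembled each tested chemokine over the 8 libraries were ranked by Pearson r, which carries the contrast between populations in every case. For Cx3cl1 they were Pak1 (r = 0.99; means of 6.40 and 1.56 FPKM in Ebi3-Treg and Blimp1-Treg), Tmem63c and Slc35d1. For Ccl20 they were Arl5a (r = 0.99; means of 41.7 and 248 FPKM), Gm2a and Samd11. The nearest were Setbp1, Gxylt1 and Zfp934 for Ccl5, Hmces, Pmvk and Nipa2 for Ccl4, Tpgs2, Gramd1c and Dstn for Ccl3, and Fam241b, Tfpt and Mtfr1l for Cxcl10, with r between 0.93 and 0.99.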

How the data were processed

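The 8 libraries came from magnetically enriched CD4 cells, sorted to a purity typically above 90%, by a low-input, full-length cDNA kit (SMART-Seq v4 Ultra), per the labels' protocols. Bowtie2 2.2.3, TopHat2 2.0.12, HTSeq 0.6.1 and mm9 are named in the submitters' processing notes. Neither their roles nor the annotation or way of counting is given in the sources used here. Values were deposited as FPKM, in 2 tables.

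Each library was taken from the column carrying its title's name. Unannotated features (640 and 612) were left out. Symbols came from a reference table (46488 of 47069 genes). The fit used limma 3.58.1 (R 4.3.3) on log2(FPKM + 1), had terms for population and table and a variance trend, and was tested on simulated data. Reads behind a gene, and the depth, were recovered from the low values as whole reads, within a tolerance of 0.02 of a read. The length used for a gene was the shortest giving whole reads, so wholeness is no check. Amplified reads are not independent molecules, and floors (3 reads) cover counting error alone.

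Same-numbered libraries deviated together across genes (r = 0.62, 0.89, 0.53 and 0.54 for numbers 1 to 4). The labels name no pairs, and the main fit did not pair the libraries. The replicate block was run as an alternative. The crossed pairs of the second table were as alike (0.61 for Ebi3-Treg 4 with Blimp1-Treg 3, 0.56 for Ebi3-Treg 3 with Blimp1-Treg 4), and relative to table means r was 0.85 in the first table and -0.08 in the second, so for numbers 3 and 4 the likeness goes with their table. Blocked values (population and replicate number as terms) are printed where they change a call. Named genes were the 9 chemokines, the tested genes of the lists, the 3 genes most alike each tested chemokine, and Foxp3, Ebi3 and Prdm1. The members and lists were chosen with earlier results of these data known. Some genes of the lists are not reported here.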

Additional observations from a re-analysis of the deposited data

Results flagged for a closer look

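A library far from the other 3 was searched for among the chemokines and the tested genes of the other-ligand, receptor and processing lists. Rhoa, Elmo1, Rac2, Cdc42, Foxp3, Ebi3 and Prdm1 were included, and the other signalling genes, markers and most alike genes were not. In these 60 groups of 4 libraries (each gene in each population), 2 held such a library, where chance gives about 1 in 20. Ccr1 in Ebi3-Treg 4 was at 0.0320 FPKM, against 0.593 to 0.715 FPKM in the other Ebi3-Treg libraries. Ccr4 in Blimp1-Treg 1 was at 81.5 FPKM, against 47.7 to 50.7 FPKM in the other Blimp1-Treg libraries. Without Blimp1-Treg 1 the log2 fold change of Ccr4 was -1.44 (limma, adjusted p = 0.0162).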

How the results depend on the processing

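Cx3cl1 and Ccl20 kept their direction under every alternative run and their call in 19 of 21 and 20 of 22. The count of the 9 chemokines called higher (1) became 2 with the replicate block and 0 with a filter of 5 FPKM, without both libraries numbered 3 and in the first table alone. The count called lower (1) became 3 with the block, 3 without the libraries numbered 1, 0 without the table term and 0 in the first table alone. The first table alone called 0 genes in all (limma, 707 at an unadjusted p under 0.05). Receptors called (4) were 5 with the block and without the libraries numbered 1, and 3 with no filter, no table term, TMM scaling and in 6 of 8 fits with a library left out (without Ebi3-Treg 2 or Blimp1-Treg 1 they were 4). They fell to 2 with the 5 FPKM filter, 1 without the libraries numbered 3, 1 without those numbered 4 and 0 in the first table. Processing genes called (0) became 2 with the block, 2 and 1 without the libraries numbered 1 and 2, and 1 in the second table. Signalling genes called (0) became 4 with the block, 1 with TMM scaling, 2 and 4 without the libraries numbered 1 and 2, and 3 in the second table. The block changed the calls named in the report and no other call of a chemokine, receptor or processing gene. It called 2752 genes where the fit without it called 772. Counts over all genes tested moved as well, from 413 higher and 359 lower in the main fit. They were 1112 and 858 without the libraries numbered 1, and 1110 and 852 without those numbered 2. Without numbers 3 and 4 they were 48 and 46, and 54 and 38. In the second table alone they were 676 and 671. The counts of the lists above were not tested against these. The filters change which genes are tested, and a left-out pair leaves fewer samples; otherwise the cause was not tested. Values near 0 changed sign: Pf4 (-0.0795 and -0.167 with pseudocounts of 0.1 and 0.01 FPKM, -0.0348 with TMM scaling, -0.142 to 0.157 with a library left out, -0.166 and -0.0416 without the libraries numbered 1 and 4, -0.000788 in the second table), Dpp4 (-0.00308 to 0.249 with a library left out, -0.0358 without the libraries numbered 3, -0.181 in the first table), Foxp3 (-0.235 to 0.0501 with a library left out), Ccr8 (0.23 in the first table) and the change of Ccl4 between tables (-0.16 with a pseudocount of 0.1 FPKM).

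Depth limits the low genes: 3 reads were worth up to 0.430 FPKM for Xcl1, and Ccl1, Ccl3, Ccl4, Ccl22, Xcl1 and the Blimp1-Treg values of Cx3cl1 rested on fewer than 10 reads in at least 1 library, so small differences were not detectable there.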
